A study of Mus musculus with 6 samples.

Results

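Rybp occupancy in wild-type mouse embryonic stem (ES) cells was measured on 2 arrays, out of 6 in the series, by ChIP-chip, in which immunoprecipitated chromatin is read out on promoter arrays. The pair was chosen by genotype label alone. Its arrays are the 2 designs of a mouse promoter set and carry different probes, 237195 on the first and 237185 on the second, so each promoter was measured on 1 wild-type (WT) array and nothing was replicated. The remaining 4 arrays, 2 from Eed constitutive knockout cells and 2 from Dnmt1 constitutive knockout cells, are used only for a final reading of positions that WT fixed. All 3 genotypes were ES cell cultures kept either on irradiated mouse embryonic fibroblasts or on gelatin, and the labels do not say which surface any culture had. Chromatin was fixed with formaldehyde, sheared to fragments averaging 0.3 to 0.5 kb and precipitated with an anti-Rybp antibody. Immunoprecipitated (IP) DNA carried Cy5 and input DNA Cy3, after amplification with T7 RNA polymerase.

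Variant forms of Polycomb repressive complex 1 contain Rybp, and in them the Ring1 and Rnf2 ubiquitin ligases mark histone H2A. These complexes are assembled around different Pcgf proteins. The Pcgf6 form contains Mga and Max, a pair that binds E-box DNA, together with E2f6, and is known in ES cells for keeping germ-line genes silent. Forms with Pcgf1 and Kdm2b are known for recruitment to unmethylated CpG islands, many of which belong to developmental regulators.

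For each probe the level is the log2 ratio of IP to input signal after the array median was set to 0. The level of a promoter is the mean over the probes whose centre lay within 500 bp of the annotated start, with at least 3 probes, and its SD covers the scatter between those probes and nothing else. A promoter at a level of 1 or more, which is 2-fold IP over input, is called bound. These are rules of size and position, and no p-value was computed. On each array 99.9% of probes had input well above background, and none was saturated. Probe levels had SDs of 0.41 and 0.42 on the first and second array.

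Of 15254 promoters measured, 358 were bound, which is 2.35%, and 2 were at -1 or less, which is 0.0131%. The median promoter level was 0.22, with quartiles of -0.00 and 0.45. Windows held a median of 5 probes, with a range of 3 to 9, and a median SD over probes of 0.26. Bound promoters made up 2.38% of those on the first array and 2.31% on the second. The values closest to the threshold were those of Uchl1 (1.00) and Eid1 (1.00) inside it and of Tfap2c (0.999) and Xkr4 (0.999) outside it.

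Tdrkh, a germ-line gene, had the highest promoter level of all. The sequences below are RefSeq promoters (GRCm38.p6, 250 bases before to 50 after the RefSeq start) of genes bound in WT. They are shown because the germ-line ones are among the highest of their lists and differ in the motifs they hold, and because the Hox pair gives the contrast at moderate levels. The strand shown is that of the gene. Capitals mark matches to the E-box CACGTG or to the E2F-type motif GGCGGGAA, the latter on either strand.
Slc25a31 (chr3:40708621-40708920, + strand): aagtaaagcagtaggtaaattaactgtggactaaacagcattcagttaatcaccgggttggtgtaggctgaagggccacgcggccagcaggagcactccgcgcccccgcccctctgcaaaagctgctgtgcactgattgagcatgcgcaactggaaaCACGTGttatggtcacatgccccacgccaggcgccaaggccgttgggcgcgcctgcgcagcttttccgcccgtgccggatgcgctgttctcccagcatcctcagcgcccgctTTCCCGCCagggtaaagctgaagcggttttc
Stag3 (chr5:138280259-138280558, + strand): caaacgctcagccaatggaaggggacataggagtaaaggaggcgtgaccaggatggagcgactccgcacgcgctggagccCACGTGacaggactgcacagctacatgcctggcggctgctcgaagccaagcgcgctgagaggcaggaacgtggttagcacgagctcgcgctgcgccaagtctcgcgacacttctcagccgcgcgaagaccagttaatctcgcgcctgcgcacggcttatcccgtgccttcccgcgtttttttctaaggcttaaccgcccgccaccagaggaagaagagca
Hormad1 (chr3:95559427-95559726, + strand): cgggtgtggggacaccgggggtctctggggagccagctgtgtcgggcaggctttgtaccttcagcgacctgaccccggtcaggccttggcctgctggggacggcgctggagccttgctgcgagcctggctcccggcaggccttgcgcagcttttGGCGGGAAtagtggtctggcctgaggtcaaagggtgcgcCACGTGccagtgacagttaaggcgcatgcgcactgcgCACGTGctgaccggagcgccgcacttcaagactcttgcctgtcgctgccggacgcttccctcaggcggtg
Stk31 (chr6:49395289-49395588, + strand): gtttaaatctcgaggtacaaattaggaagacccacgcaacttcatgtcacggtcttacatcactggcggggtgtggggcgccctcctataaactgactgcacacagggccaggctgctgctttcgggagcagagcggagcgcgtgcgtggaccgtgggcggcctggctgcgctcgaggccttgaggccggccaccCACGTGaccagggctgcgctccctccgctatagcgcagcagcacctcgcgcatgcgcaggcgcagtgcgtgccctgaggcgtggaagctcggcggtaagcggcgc
Mael (chr1:166238695-166238994, - strand): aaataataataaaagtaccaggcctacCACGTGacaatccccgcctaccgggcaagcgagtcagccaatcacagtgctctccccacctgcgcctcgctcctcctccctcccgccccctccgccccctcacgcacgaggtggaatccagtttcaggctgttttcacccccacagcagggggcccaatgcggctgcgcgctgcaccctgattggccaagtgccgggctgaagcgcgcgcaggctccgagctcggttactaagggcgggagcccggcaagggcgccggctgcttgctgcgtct
Tdrkh (chr3:94412994-94413293, + strand): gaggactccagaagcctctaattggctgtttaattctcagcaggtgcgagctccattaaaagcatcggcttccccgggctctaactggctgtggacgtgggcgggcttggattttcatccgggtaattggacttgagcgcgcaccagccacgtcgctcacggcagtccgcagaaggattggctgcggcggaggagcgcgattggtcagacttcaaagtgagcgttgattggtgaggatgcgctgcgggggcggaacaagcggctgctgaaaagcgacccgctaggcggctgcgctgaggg
Hoxa11 (chr6:52245761-52246060, - strand): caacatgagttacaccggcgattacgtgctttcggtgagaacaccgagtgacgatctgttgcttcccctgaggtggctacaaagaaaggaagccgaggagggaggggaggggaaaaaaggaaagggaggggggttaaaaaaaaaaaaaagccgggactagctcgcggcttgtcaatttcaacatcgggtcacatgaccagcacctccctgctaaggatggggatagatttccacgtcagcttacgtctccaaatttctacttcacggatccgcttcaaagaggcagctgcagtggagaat
Hoxd10 (chr2:74691641-74691940, + strand): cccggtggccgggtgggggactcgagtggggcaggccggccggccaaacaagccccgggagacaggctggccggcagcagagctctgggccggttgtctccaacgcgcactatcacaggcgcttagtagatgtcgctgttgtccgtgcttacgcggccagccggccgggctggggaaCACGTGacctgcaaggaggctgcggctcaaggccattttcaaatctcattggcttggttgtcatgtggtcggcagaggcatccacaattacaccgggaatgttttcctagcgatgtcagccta

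Positions are counted from the RefSeq start, upstream negative. The E-box began at -93 in Slc25a31, at -170 in Stag3, at -55 in Stk31, at -223 in Mael and at -73 in Hoxd10. Hormad1 held it at -57 and again at -20. The E2F-type motif began at -96 in Hormad1, and its reverse complement TTCCCGCC began at 20 in Slc25a31. Tdrkh and Hoxa11 held neither motif in these windows.

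The piRNA pathway and germ granule list covers proteins that make and use PIWI-interacting RNAs, the small RNAs that silence transposons in germ cells. Of its 22 measured promoters 10 were bound (45.5%, against 2.35% of all promoters). The median level was 0.91, against 0.22 over all promoters. Tdrkh, a Tudor and KH domain partner of PIWI proteins, had a level of 2.73 ± 0.44 (SD over 5 probes). Its probes read 2.18 at -409 bp, 2.78 at -288 bp, 2.63 at -103 bp, 3.39 at 105 bp and 2.64 at 316 bp, so all of them were above 4-fold. Stk31, a germ-cell protein with a Tudor domain, had a level of 1.80 ± 0.90 (5 probes), with probes at 2.37, 2.45, 0.57, 1.08 and 2.51. The scatter at Stk31 came from a pair of probes close to the start that read lower than those on either side. Mael, which acts in transposon silencing, had a level of 1.62 ± 0.67 (6 probes). The other bound members, named after their values were seen, were Dazl (1.54), Ddx4 (1.47), Henmt1 (1.40), Boll (1.36), Piwil2 (1.20), Ddx25 (1.19) and Rnf17 (1.09). The list was not uniform, since Nanos2 (-0.00), Mov10l1 (-0.15), Tdrd7 (-0.24) and Nanos3 (-0.27 ± 0.32, 5 probes) were at or below the array median.

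The meiotic chromosome list holds cohesins, synaptonemal complex proteins and recombination factors. It had 12 of 22 promoters bound (54.5%, against 2.35% of all promoters) and a median of 1.29. Zcwpw1, a reader of histone marks at meiotic recombination sites, had a level of 2.27 ± 1.05 (7 probes). The large SD follows its steep profile, in which probes read 0.82 at -435 bp, 3.60 at 93 bp and 1.44 at 495 bp. Stag3, the meiosis-specific cohesin subunit, had a level of 2.22 ± 1.16 (4 probes), with probes at 0.64, 3.09, 2.05 and 3.101. Hormad1, a protein of the meiotic chromosome axis, had a level of 2.09 ± 0.49 (4 probes), with probes at 2.11, 1.49, 2.70 and 2.07. The other bound members were Spata22 (1.93), Tex11 (1.84), Sycp1 (1.83), Tex12 (1.79), Msh4 (1.64), Sycp3 (1.58), Spo11 (1.58), Smc1b (1.57) and Syce2 (1.01). Between the last of these and the rest of the bound group lay a gap from 1.57 to 1.01. The recombinase Dmc1 (0.49), Stra8 (0.16), which drives entry into meiosis, and Tex15 (-0.26 ± 0.20, 4 probes) were not bound.

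Testis-expressed paralogues of widely expressed genes had 7 of 24 promoters bound (29.2%, against 2.35% of all promoters) and a median of 0.46. Slc25a31, the germ-cell ADP/ATP carrier, had a level of 2.26 ± 0.34 (5 probes), and its probes read 2.26, 2.24, 2.82, 2.11 and 1.89. H2bc1, the testis form of histone H2B, had a level of 2.11 ± 0.23 (4 probes). H2ac1, the neighbouring testis form of H2A, had a level of 1.88 ± 0.52 (5 probes), and the pair is divergently placed with starts close enough to share probes. D1Pas1, a testis DEAD-box helicase, had a level of 2.02 ± 0.37 (6 probes). The next members were Nxf2 (1.42) and Tuba3a (1.26), while Ldhc (-0.26) and Usp26 (-0.34 ± 0.23, 4 probes) were below the median.

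Across the 3 germ-line lists, 29 of 68 promoters were bound, which is 42.6% against 2.35% of all promoters. These lists were drawn up with earlier results of the same data known, so their counts are a description of the lists.

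**Figure D1:**
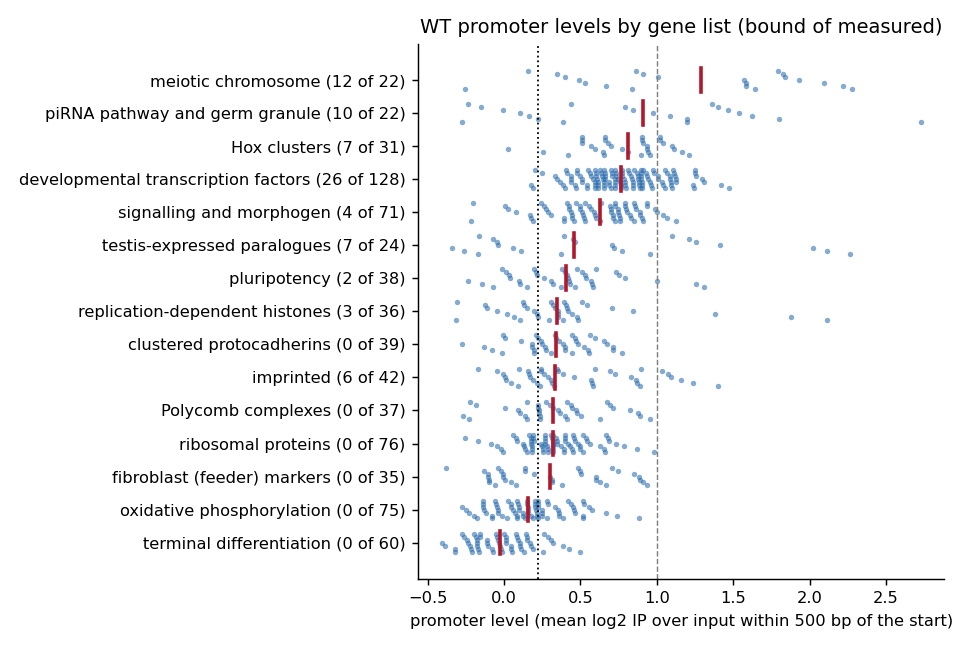
Each point is 1 WT promoter level (x axis, log2 IP over input within 500 bp of the start) in 15 gene lists (y axis, with the number bound of the number measured), and the red bar is the list median. Vertical offsets only separate points. The dotted line is the median of all promoters (0.22) and the dashed line the bound level of 1. Meiotic and piRNA genes spread from below 0 to above 2, whereas developmental factors are packed around 0.77. Olfactory receptors (573 promoters, median -0.14) are not drawn.

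Developmental transcription factors lay above the array median at every measured promoter, and few were far above the bound level. Of 128 measured promoters 26 were bound, or 20.3%, against 2.35% of all promoters. The median was 0.77 with quartiles of 0.60 and 0.94, and even the lowest member, Nr2f2, was at 0.18 ± 0.38 (3 probes). The T-box factor Tbx15 had the highest level, 1.47 ± 0.71 (4 probes), followed by the LIM homeobox gene Lhx5 at 1.42 ± 0.20 (5 probes). Lhx5 was even across its window, with probes at 1.63, 1.26, 1.16, 1.56 and 1.47. With normexp background correction only 4 of the 128 stayed at 1 or more, and Tbx15 (0.62) was not among them, whereas 23 of the 68 germ-line promoters were still bound.

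Hox genes, which set position along the body axis, had 7 of 31 promoters bound (22.6%, against 2.35% of all promoters) and a median of 0.81. Hoxa11 was highest at 1.21 ± 0.52 (4 probes), then Hoxd10 at 1.16 ± 0.24 (5 probes) and Hoxa2 at 1.11 ± 0.41 (5 probes), and Hoxd4 was lowest at 0.03 ± 0.13 (5 probes). Probes of Hoxd10 read 0.86, 1.21, 1.33, 1.44 and 0.99. Within 1000 bp of the start, in place of 500 bp, Hoxa11 read 0.94, below the bound level. Signalling and morphogen genes had 4 of 71 bound (5.63%, against 2.35% of all) and a median of 0.63. Among them the Notch ligands Dll1 and Dll4 read 1.12 ± 0.45 (6 probes) and 1.07 ± 0.25 (5 probes), and Fgf9 read 1.04 ± 0.42 (7 probes). With normexp these 3 read 0.86, 0.82 and 0.80, below the bound level.

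Imprinted genes had 6 of 42 promoters bound (14.3%, against 2.35% of all) and a median of 0.34. A promoter of Gnas, in a cluster of alternative imprinted promoters, had a level of 1.40 ± 0.27 (3 probes), Dio3, a deiodinase, 1.24 ± 0.73 (4 probes) and Phlda2, a growth restrictor of the placenta, 1.16 ± 0.19 (5 probes). Another Gnas promoter in the list read 0.58 ± 0.20 (5 probes) and was not bound. With normexp the higher Gnas promoter read 0.99 and Phlda2 0.58. Peg10 was lowest at -0.17 ± 0.31 (3 probes). Among pluripotency genes 2 of 38 were bound (5.26%, a share near the 2.35% of all promoters at this list size), Tcl1 at 1.31 ± 0.41 (7 probes) and Otx2 at 1.25 ± 0.22 (4 probes), and Otx2 read 0.79 with normexp. Among core factors, Sox2 (0.73), Klf4 (0.46) and Pou5f1 (0.43) were above the median of all promoters and below the bound level. These core factors were named after their values were seen and do not stand for all core factors of the list. Other members lay both above and below them, with Tfap2c at 0.999. The list had a median of 0.41 with quartiles of 0.16 and 0.56, and Spp1 was lowest at -0.24 ± 0.29 (5 probes). Otx2 is also a member of the developmental list.

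The list of replication-dependent histones was picked by a pattern of symbols, which also took in H13 (0.39), a histocompatibility gene and no histone. Of its 36 promoters 3 were bound (8.33%, against 2.35% of all promoters): H2bc1, H2ac1 and H2bc14 (1.38 ± 0.14, 3 probes). H2bc1 and H2ac1 share probes, so their calls are not separate, and H2bc1 is also counted among the testis-expressed paralogues. The list median was 0.34. None of 37 Polycomb complex genes was bound, which at this list size is near the 2.35% of all promoters, and E2f6 came closest at 0.96 ± 0.73 (5 probes), then Bcor (0.89), a partner of Pcgf1, and Yaf2 (0.88), the paralogue of Rybp. A stretch of enriched probes within 2 kb of the start was found at 5 of the 37 (13.5%, against 6.35% of all promoters). Hdac2 (0.82 within 500 bp) was among them. The Rybp gene had only 2 probes within 500 bp of its start and so no promoter level. Over its 28 probes values ran from -0.26 to 0.89 with a median of 0.40, and the probes at 199 bp and 327 bp read 0.38 and 0.54. Eed was at 0.37 ± 0.16 (5 probes) and Dnmt1 at 0.05 ± 0.31 (4 probes).

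No promoter of the ribosomal protein, oxidative phosphorylation, protocadherin, terminal differentiation, olfactory receptor or fibroblast lists was bound. With 2.35% of all promoters bound, 0 is near the background for lists of 35 to 76 promoters. Ribosomal proteins had a median of 0.32 over 76 promoters, oxidative phosphorylation 0.16 over 75, clustered protocadherins 0.34 over 39, terminal differentiation genes -0.02 over 60 and olfactory receptors -0.14 over 573. Fibroblast genes, which could report DNA of the feeder cells or the ES cells themselves, had a median of 0.30 over 35 promoters, from 0.94 at Cav1 to -0.38 at Col1a1. Arrays of genomic DNA cannot check the cell type by expression, and the part of feeder DNA in any value was not tested.

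Germ-line and developmental genes had similar median levels at the start and different profiles around it. Probes were binned by their distance from the start in steps of 250 bp. Over all promoters the median went from -0.07 at -2500 bp to 0.23 at the start, peaked at 0.27 at 250 bp and was back at -0.05 at 2500 bp. With the trend on probe GC content removed, the median level of probes within 250 bp of a start was 0.062 in place of 0.22. Germ-line genes formed a narrow peak, with medians of -0.00 at -2500 bp, 0.68 at -250 bp, 0.70 at the start and 0.93 at 250 bp, and 0.21 at 1000 bp. By 1750 bp the median was 0.06. Developmental factors formed a plateau instead: 0.45 at -2500 bp, 0.77 at -1000 bp, 0.71 at the start, 1.02 at 1250 bp and 0.83 at 2500 bp. Their highest bin therefore lay downstream of the start, and the bin at the start was the lowest from -1250 bp to 2500 bp. Hox genes varied between 0.45 and 0.89 from -2500 bp to 2500 bp, with 0.77 at the start.

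**Figure D2:**
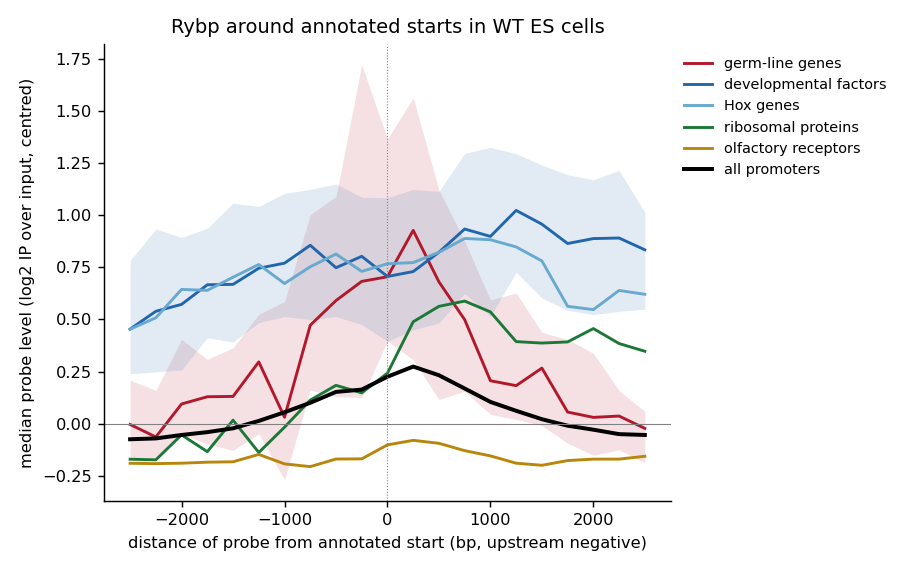
Median probe level (y axis, log2 IP over input) in 250 bp bins of the distance from the annotated start (x axis) for 6 groups of WT promoters, with shaded quartiles over probes for germ-line genes and developmental factors. Germ-line genes peak at 0.93 at 250 bp and are near 0 at both ends. Developmental factors stay between 0.45 and 1.02 across the plotted range.

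The same contrast was measured per promoter, by setting the level within 500 bp against the mean of both flanks, 1 to 2.5 kb upstream and downstream, each with at least 3 probes. This measure was added after the profiles had been seen. Over 9838 promoters with both flanks, the flanks were above the start in 1887, which is 19.2%. They were above it in 4 of 39 germ-line promoters and in 57 of 119 developmental ones. Median levels of the germ-line promoters were 0.05 upstream, 0.79 at the start and 0.15 downstream. Those of the developmental promoters were 0.65, 0.77 and 0.93. A flank level of 0.5 or more was found at 106 of 119 developmental promoters, 20 of 29 Hox promoters, 7 of 39 germ-line promoters and 5.32% of all. With the trend on probe GC content removed, flanks exceeded the start at 74 developmental promoters and 8 germ-line ones, and at 3271 of all 9838, so the share of all promoters was higher as well. With normexp the numbers were 44 developmental and 7 germ-line promoters and 1898 of all, so that the germ-line share was then near that of all promoters.

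Ribosomal protein genes were enriched mainly downstream. Their median was 0.24 at the start, 0.59 at 750 bp and 0.46 at 2000 bp, against -0.17 at -2500 bp. In 37 of 38 promoters with both flanks the downstream flank was above the upstream one, compared with 58.9% of all promoters. Probes 500 to 2500 bp downstream had a median level of 0.45 although their median CpG content was 0.00 per 100 bases. Their median input signal was 1042, against 863 for the same interval over all promoters. The part of the input signal in this was not tested. Oxidative phosphorylation genes, which are also housekeeping genes, read -0.05 in that interval. Clustered protocadherins read 0.57 there, above their 0.30 within 500 bp.

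**Figure D3:**
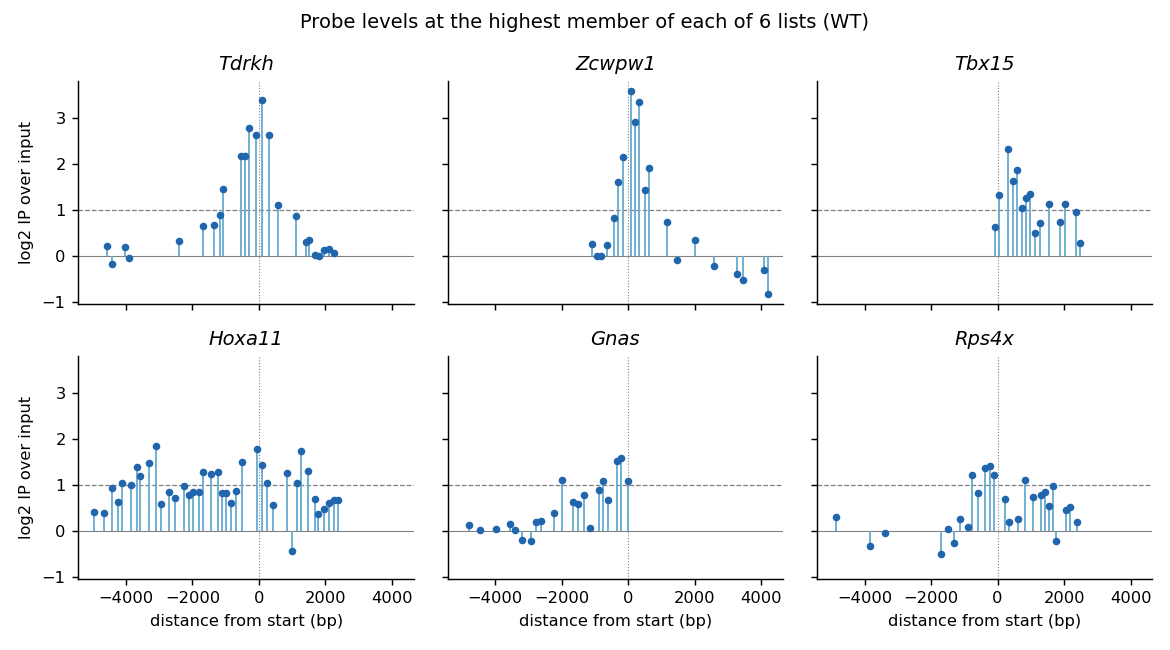
Probe levels (y axis, log2 IP over input) against distance from the annotated start (x axis, bp) at the highest member of each of 6 lists, 1 point per probe, with the dashed line at the bound level of 1. Tdrkh and Zcwpw1 peak at the start at 3.39 and 3.60. Hoxa11 stays near 1 over several kb, and Rps4x has probes around 1 on both sides of its start.

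The single loci show these shapes without averaging. At Tdrkh the probes went from 3.39 at 105 bp to 1.11 at 571 bp, 0.31 at 1400 bp and 0.01 at 1673 bp. Upstream they reached further, with 1.45 at -1074 bp and 0.66 at -1682 bp. At Zcwpw1 the probes upstream read 0.25 at -640 bp and -0.00 at -822 bp. At Hoxa11, 0.94 was still measured at -4427 bp, 1.86 at -3103 bp, 1.78 at -46 bp and 1.74 at 1273 bp, with a single probe of -0.44 at 987 bp between high neighbours. Tbx15 had probes only from -83 bp onwards and read 2.33 at 306 bp and 1.13 at 2044 bp. Gnas had none beyond -6 bp, so its level of 1.40 describes the upstream side only. At Rps4x the level was 1.42 at -237 bp and 1.11 at 814 bp with 0.19 between them at 349 bp.

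Enriched stretches were then called without reference to genes, as runs of at least 3 neighbouring probes whose 3-probe mean was 1 or more. There were 1271 of them, and 82 at -1 or less by the same rule. Their median width was 596 bp, with quartiles of 436.5 and 898 bp and a maximum of 4331 bp. Stretches over 1 kb made up 20.1%. In 170 a stretch reached the end of its tile, so that its width is a lower bound. Summits lay within 500 bp of a start in 36.7% of stretches, while 19.4% of all probes were that close to a start. In 81 stretches every probe was over 2 kb from its nearest annotated start. Summits lay downstream of the nearest start in 749 and upstream in 522. Probes were not evenly placed either. Over all promoters the bin at 1000 bp held 16914 probes and that at -1000 bp 12542, while further out 4000 bp had 1344 and -4000 bp 8679. No share of probes is given here beside the split of summits or the 81 stretches, so neither is read as a preference.

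The highest stretches, in the coordinates of the array annotation, for which no source used here names a genome build, included 5 germ-line genes among 10. Zcwpw1 had the top 3-probe mean, 3.29, over 1011 bp of chromosome 5 (138017313 to 138018323), followed by Tdrkh with 2.94 over 1812 bp of chromosome 3 (94497511 to 94499322) and Stag3 with 2.74 over 1239 bp of chromosome 5 (138509869 to 138511107). Each of these crossed the start of its gene. Next came a stretch upstream of Fbxo46, an F-box gene, with 2.66 and a summit at -1919 bp, and the promoter of the histone deacetylase gene Hdac2, with 2.56 and a summit at -723 bp. D1Pas1 (2.55), Eif5a2 (2.54), Cntln (2.46) and Slc25a31 (2.44) followed. The stretch of D1Pas1 ran for 2640 bp and had its summit 992 bp downstream of the start.

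The tenth highest, with 2.41 over 2977 bp of chromosome 17 (39451689 to 39454665), stands apart in the input as well. Its median input signal was 9539, against 865 and 863 over all probes of the first and second array. It had 9.07 CpG per 100 bases, and the array design names it Pigt, a gene that RefSeq places on chromosome 2. The part of the input level in this call was not tested.

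The widest stretches were of another kind. Sim1, a bHLH-PAS factor, had 4331 bp, Nkx2-2, a homeobox factor of the ventral neural tube, 3881 bp, and Evx2, the homeobox gene beside the HoxD cluster, 3552 bp. Bhlhe41, a repressor of the circadian clock, had 3392 bp and Pcdh10, a protocadherin outside the clusters, 3313 bp. Their summits, from 1.68 at Pcdh10 to 1.99 at Bhlhe41, were below every one of the 10 highest. The stretches of Nkx2-2, Evx2 and Pcdh10 reached a tile end.

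Near the measured promoters, 969 of 15254 had a stretch within 2 kb of the start, which is 6.35%. For germ-line genes this was 34 of 68, for developmental factors 100 of 128, for Hox genes 18 of 31, for signalling genes 25 of 71 and for imprinted genes 12 of 42. More than 1 stretch was found at 36 developmental and 7 Hox promoters, at no germ-line promoter and at 136 of all 15254. For 68 germ-line promoters a count of 0 is near that share. Germ-line stretches had a median width of 1170 bp and a median summit of 1.69, and 26 of 34 summits were within 500 bp of the start. Developmental stretches had a median width of 740 bp and a median summit of 1.36, and 23 of 141 summits were within 500 bp. The median absolute distance of summit from start was 268 bp for germ-line genes, 1128 bp for developmental factors and 1096 bp for Hox genes. Stretches near any measured promoter had a median width of 599 bp and a median summit of 1.35. Of their 1100 placed summits 384 were within 500 bp, and the median absolute distance was 714.5 bp.

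A width at a fixed level depends on height, so the width at 50% of each summit was added after these values had been seen. By this measure the order turned. Germ-line stretches were 1397 bp wide (quartiles 1134 and 1776), close to the 1426 bp of all stretches near promoters, while developmental ones were 2087 bp (1447 and 2949) and Hox ones 2628 bp (1945 and 5216). Neighbouring stretches on the same plateau share their width by this measure, and 60 of the 141 developmental ones reached a tile end, against 10 of 34 germ-line ones.

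**Figure D4:**
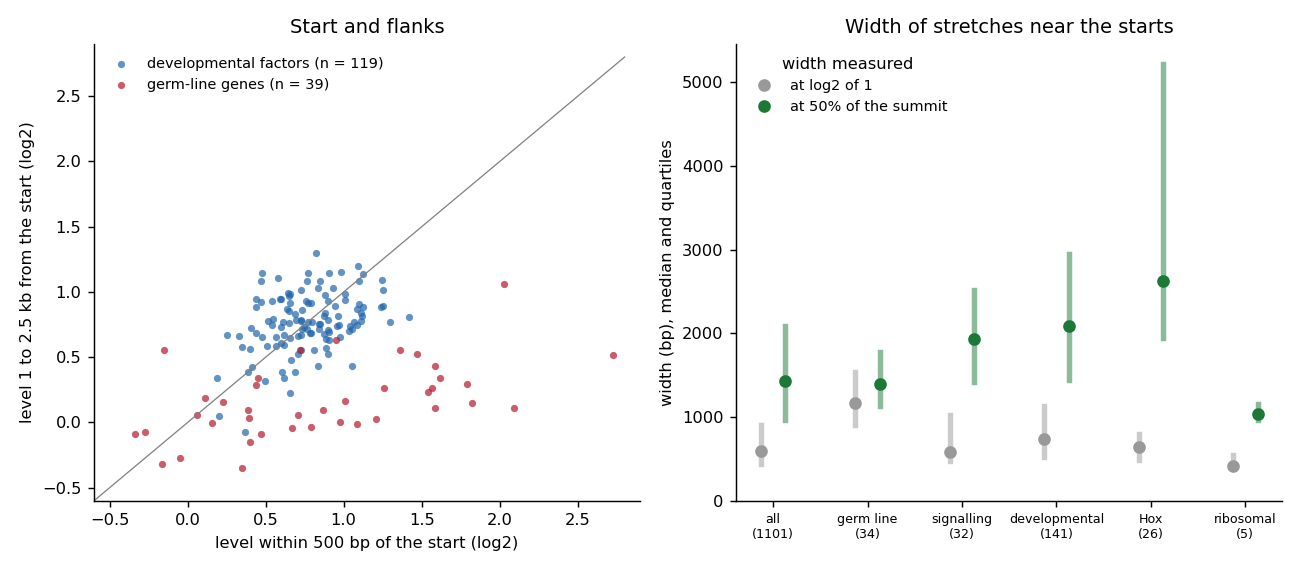
Left, level 1 to 2.5 kb from the start (y axis) against level within 500 bp (x axis) for 119 developmental and 39 germ-line promoters, in log2 IP over input, with the line of equality. Right, median width with quartiles (bars) of stretches near the starts of 6 groups, with their numbers in parentheses, at the fixed level and at 50% of the summit. Flanks exceed the start in 57 of 119 developmental and 4 of 39 germ-line promoters, and developmental stretches go from 740 bp to 2087 bp between the measures, germ-line ones from 1170 bp to 1397 bp.

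CpG content moved with the level. Across probes the level had a correlation of 0.31 with CpG content on each array, 0.30 and 0.29 with GC content, and 0.01 and 0.04 with input brightness on the log scale, as a description over probes that share a hybridisation. In 5 equal groups by the CpG content of their probes, from low to high, promoters had medians of -0.09, 0.10, 0.29, 0.33 and 0.39, while bound promoters numbered 9, 45, 128, 96 and 80. The middle group, with a median of 3.13 CpG per 100 bases, held the most bound promoters. In the middle of 3 equal groups by CpG content, germ-line promoters had a median of 1.23 and 19 of 30 bound, against 0.27 and 185 of 5070 for all promoters. In the upper group the figures were 0.99 and 10 of 20, against 0.37 and 140 of 5099. In the lowest group 0 of 18 germ-line promoters were bound, with a median of -0.02, and 33 of 5085 of all promoters. Developmental factors kept their level even there, with a median of 0.66 over 13 promoters.

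Motif shares were counted in the 10264 promoters whose RefSeq sequence contained a probe of the window. The E-box CACGTG is its own reverse complement, and a match of it can overlap a match of GGCGGGAA by 1 base. It was present in 8.96% of all 10264 promoters and GGCGGGAA, on either strand, in 3.55%. The share with an E-box was higher at higher WT levels: 4.28% of 2526 promoters below 0, 9.17% of 5716 from 0 to 0.5, 13.2% of 1791 from 0.5 to 1, 18.6% of 194 from 1 to 1.5, and 40.5% of 37 at 1.5 or above (exact binomial 95% interval 24.8 to 57.9). GGCGGGAA went from 1.43% in the lowest group to 21.6% in the highest (9.83 to 38.2). The T-box site AGGTGTGA, on either strand, was also searched and was in 35 of 2526 promoters of the lowest group and in 2 of 37 of the highest.

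Because both motifs contain CpG, 3 other palindromes with the bases of the E-box were counted after these shares had been seen. No such comparison was counted for GGCGGGAA. From the lowest to the highest group CTCGAG went from 2.34% to 10.8% (exact binomial 95% interval 3.03 to 25.4). GTCGAC went from 0.95% to 0 of 37, and GACGTC from 3.13% to 2.70%. For GTCGAC a count of 0, taken as under 3 counts, allows up to 8.11%, and the exact binomial 95% interval reaches 9.49%. Within the upper of 3 groups of promoters by CpG count in the sequence, 29 of 112 bound promoters held the E-box, or 25.9%, against 11.8% of 3597 that were not bound. In the middle group it was 22.4% of 98 against 10.2% of 3112, and in the lowest 0 of 21 (up to 14.3% by 3 counts) against 3.76% of 3324. The exact binomial 95% intervals of bound promoters in the upper and middle groups were 18.1 to 35.0 and 14.6 to 32.0. These intervals cover counting error only.

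Among germ-line promoters the E-box was in 13 of 24 that were bound (54.2%) and in 5 of 29 that were not. Bound promoters outside the germ-line lists held it in 38 of 207, or 18.4%. Of 14 bound developmental promoters none held it (a count of 0 allows up to 21.4% by 3 counts), although 8 of all 70 in that list did, and 5 of all 13 Hox promoters with a sequence did. A match of letters does not show a site in use, and the absence of letters from 300 bases says nothing about the rest of the locus.

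**Figure D5:**
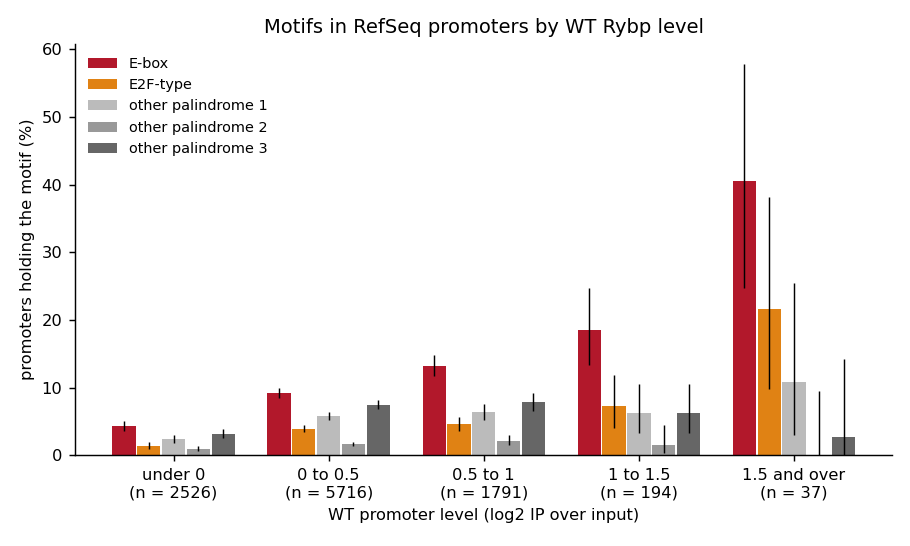
Share of promoters (y axis, %) whose 300-base RefSeq sequence holds each of 5 motifs, in 5 groups by WT promoter level (x axis, log2 IP over input, with the number of promoters), with exact binomial 95% intervals as lines. The E-box share goes from 4.28% to 40.5% and the E2F-type share from 1.43% to 21.6%, while the other palindromes (1 is CTCGAG, 2 is GTCGAC and 3 is GACGTC) reach at most 10.8%.

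Probes of a window that had not been used to choose a promoter were read separately. Promoters were called on every other probe and measured on the rest, over 13080 windows with at least 4 probes. Of 399 called on odd-numbered probes, the even-numbered ones had a median of 0.96, and 361 of them were at 0.5 or more, or 90.5% against 22.2% of all windows. In the reverse split the median was 0.94 over 423 promoters. The level of 1 itself was reached on the unused probes by 44.9% and 42.3%. These probes share a hybridisation and an IP, and the splits give no measure of variation between cultures.

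The WT stretches were also read on the knockout arrays. Since they were chosen in WT, their WT values were fixed by that choice. The median level of the 1271 stretches was 1.26 in WT, 1.27 in Eed-KO and 1.94 in Dnmt1-KO, and 1031 were at 1 or more in Eed-KO. Germ-line stretches had medians of 1.46, 1.25 and 2.52 in the same order, and developmental ones 1.25, 1.38 and 1.74. Over all 15254 promoters the medians were 0.22, 0.14 and 0.85, with 2.35%, 2.33% and 42.6% at 1 or more. Measured per promoter, germ-line genes had medians of 0.84, 0.59 and 1.89 and developmental factors 0.77, 0.84 and 1.87. In Dnmt1-KO the class medians thus differed over stretches and were close over promoters. The shares of promoters at 1 or more there were 66.2% for germ-line genes and 87.5% for developmental factors, against 42.6% of all. The Dnmt1-KO arrays had a wider spread over all probes, with an SD of 0.93 against 0.41 in WT and 0.46 in Eed-KO, and came from another scanner model. With 1 array per promoter in each genotype, genotype and hybridisation cannot be told apart.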

How the data were processed

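Each array was scanned in 2 colours. The deposited files hold, per the file headers, processed intensities that are background-subtracted and dye-normalised by Agilent Feature Extraction 9.5.3.1 for the WT arrays. The value table the authors deposited holds log10 ratios of IP over input, which differed from the scanner log10 ratios by a constant per array, within 0.001 for 99.9% of probes, with medians of -0.025 and -0.027. No source used here gives the reason for those constants, or the genome build of the coordinates.

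From the intensities, log2 of red over green was centred on the median of the non-control probes of each array. Probes with an outlier flag (51 and 107) were then left out. Probe lengths ran from 45 to 60 bases, and neighbouring probes were typically 174 bp apart. Positions and starts came from the later annotation in the Dnmt1-KO files (no values of those arrays were used for it), and 323 and 415 probes without a position there were left out of positional counts. Where a probe lay in a RefSeq promoter, its distance from the start agreed within 100 bp for 88.9% of 14306 matches. Symbols were updated through RefSeq accessions, which matched 16943 of 17596. RefSeq sequences containing a probe of the window were found for 10264 of 15254 promoters. Promoters with the same probes count once, and 12 of the 358 bound ones share a probe with another.

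Stretches were runs in tiles broken at gaps over 600 bp, and the finder was tested on simulated data. The text names the 10 highest and 5 widest stretches, the highest members and some lowest members of each list by a stated rule, and other list members named after their values were seen. Some members that the rule would name are not reported here. The members and the 16 lists were chosen with earlier results of these data known. Flank levels, widths at 50% of the summit and the comparison palindromes were added after seeing the data. Alternatives were normexp (limma 3.58.1, offset 50), the authors' table, mode centring, a lowess trend on GC (statsmodels 0.14.6), dim and outlier probes, each array alone, 1.5-fold and 3-fold levels, windows of 250 and 1000 bp, 5-probe means and gaps of 300 and 1000 bp. Python 3.11.15 and R 4.3.3 were used.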

Additional observations from a re-analysis of the deposited data

How the results depend on the processing

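With 1 array per promoter no variation between cultures was measured, which limits the precision. No paired analysis was possible because the comparisons come from no test and each genotype has 1 array of each design. Against 358 bound promoters, the count was 184 with normexp, 228 with the GC trend removed (223 of them among the 358), 203 with windows of 250 bp, 2183 at 1.5-fold and 31 at 3-fold. Each array alone, which holds a part of the promoters, gave 183 and 175. Against 1271 stretches, the count was 561 with normexp, 4878 at 1.5-fold and 67 at 3-fold, and 667 and 604 on the first and second array alone. The median width stayed within 1.5 times of 596 bp under every alternative run, from 509 bp at 3-fold to 795 bp with a 5-probe mean. The median probe level within 250 bp of a start, 0.22, became 0.25 with normexp, 0.14 in the authors' table, 0.27 with mode centring and 0.062 with the GC trend removed. Of 25 bound promoters among the highest 3 of each list, 9 were below 1 under at least 1 alternative other than a changed level or a single array. The highest 3 of each germ-line list were not among them, while the germ-line lists as a whole had 23 bound with normexp against 29. Of these leaders, Tdrkh, Mael, Hormad1, H2bc1 and D1Pas1 had fewer than 3 probes within 250 bp. They had no level in that window and could not lose the call there. The cause of these shifts was not tested. The 3 germ-line lists together had 29 bound promoters, 13 with windows of 250 bp, 14 at 3-fold and 40 at 1.5-fold. Developmental factors had 26, with 17 in windows of 250 bp, none at 3-fold and 101 at 1.5-fold. All counts for windows of 250 bp, over all promoters and in the lists, cover only promoters with at least 3 probes there. A lower count can thus come from promoters left unmeasured, whose number is not given here.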

Other observations

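The 47 probes of the mitochondrial genome all lay below 0, with a median level of -2.88 (quartiles -3.31 and -2.15) and a median input signal of 101215. Probes of the X and Y chromosomes had median input signals of 494 and 519, against 878 on the autosomes, with median levels of -0.03 and -0.08 against 0.00. Among the fibroblast genes 7 of 35 had an enriched stretch within 2 kb of the start, compared with 6.35% of all promoters, although none was bound at the start. Ccn1 (0.91 ± 0.23, 6 probes), a matrix protein of the growth-factor response, and Pdgfra (0.89 ± 0.66, 7 probes), a growth-factor receptor, had the next highest levels of the list after Cav1, which had no such stretch. Prrx1 (0.89) and Twist1 (0.71) of the fibroblast list are also in the developmental list, where 100 of 128 promoters had a stretch within 2 kb.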
